A study of Nothobranchius furzeri with 15 samples.

Results

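The 200 longest entries of a killifish transcript catalogue were followed in brain, liver and skin. RPKM gives reads per kilobase of entry and per-million counted reads. The length of an entry was worked out backwards from its RPKM, its count and the library total, and the median over libraries with a count was taken. The 200 entries with the largest length were taken as members, out of 18115 entries with a length and 18311 entries in all. Expression values did not choose them, since each value of an entry implied the same length, within a relative tolerance of 1e-06. The longest member had 35976 bases, the median member 10444 bases and the shortest 9249 bases. The entry just outside had 9247 bases, and the median over all entries was 2372 bases. Of all lengths, 31.27% were multiples of 3, so they are not coding lengths alone.

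The animals were Nothobranchius furzeri, an annual killifish, of the short-lived inbred strain GRZ. They were 12 weeks old, and no treatment or mutation is named for them. Each tissue had 5 RNA-seq libraries. Brain and liver libraries carry the numbers 10, 11, 13, 14 and 15 in their titles, and skin libraries 5, 6, 7, 13 and 14. Equal numbers may mark the same fish, which no label states. The 3 tissues were compared as brain over liver, brain over skin and liver over skin, so every pair of comparisons shares 5 libraries.

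The longest messenger RNAs of vertebrates include those of very large proteins, such as the giant filament proteins of striated muscle, spectrin-family linkers, giant cadherins, dynein heavy chains and, in liver, apolipoprotein B. Others are long because of their 3′ untranslated region, and brain is known for messenger RNAs with extended ones. This is general background and is assigned to no entry here. The files give each entry a catalogue identifier and the identifier of a zebrafish gene, with no gene name, and none of these matched the reference table (0 matches of each kind). Entries are therefore given by length rank, with rank 1 the longest, and by identifier for the largest differences of each comparison. Tissue markers could not be looked up either, so the labelled tissues were not checked against markers. Which member encodes which protein is not described.

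The deposited annotation pairs every member with a zebrafish gene identifier. Of the members 168 (84.0%) were best bidirectional hits of their zebrafish gene, against 74.1% of all entries. The members carried 192 different zebrafish identifiers, since 8 identifiers were each held by 2 members. Altogether 68 members (34.0%) shared their zebrafish identifier with some other entry, against 28.1% of all entries.

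Library depth ran from 17.7 to 30.8 M counts. At an equal level a longer entry collects more counts, and members had deeper counts than the rest. The median count per member was 1574 to 2817 in brain libraries, 340.0 to 554.5 in liver libraries and 995.5 to 1482 in skin libraries. For the 16412 other entries that passed the count filter of the tests below, the medians were 457 to 682 counts (brain), 116 to 185 (liver) and 225.5 to 317.5 (skin). Of the 200 members, 188 to 198 had at least 10 counts in a library. Counts were scaled between libraries by TMM, whose factors averaged 1.68 for brain libraries, 0.598 for liver libraries and 1.01 for skin libraries. All CPM values below are counts-per-million after this scaling, and 3 counts correspond to 0.0593 to 0.0895 CPM in a brain library, 0.178 to 0.267 CPM in a liver library and 0.12 to 0.163 CPM in a skin library.

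The members took a larger share of the counted reads in brain than in skin or liver. The share was 2.75, 2.84, 2.23, 3.44 and 2.78% in brain 10, 11, 13, 14 and 15. It was 1.15, 1.48, 1.32, 1.39 and 1.30% in liver 10, 11, 13, 14 and 15, and 1.73, 1.58, 1.86, 1.60 and 2.13% in skin 5, 6, 7, 13 and 14. Every brain library lay above every skin library, and every skin library above every liver library, with brain 14 the highest of all and liver 10 the lowest. The mean was 2.81% ± 0.43 for the brains, 1.33% ± 0.122 for the livers and 1.78% ± 0.226 for the skins (SD, n = 5 each). In a second deposited table, of genome gene models with their own 200 longest, brain and skin overlapped. There brain 13 had 3.29% and skin 5 had 3.44%.

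On the per-length scale, where long entries no longer gain by their length, the order of tissues was the same. The members held 0.634, 0.661, 0.496, 0.852 and 0.631% of the summed RPKM in brain 10, 11, 13, 14 and 15. They held 0.194, 0.252, 0.225, 0.239 and 0.219% in liver 10, 11, 13, 14 and 15, and 0.311, 0.275, 0.331, 0.284 and 0.407% in skin 5, 6, 7, 13 and 14. Again no tissue overlapped another. The 16412 other entries that passed the count filter of the tests followed this order as well. Their median RPKM averaged 8.71 over the brains, 4.89 over the skins and 2.48 over the livers. The order alone therefore does not set members apart. The members are 1.10% of the entries with a length, so in every library their share of the summed RPKM was below their share of the entries. A share of a sum leans on the most abundant entries. The median RPKM of members averaged 9.07 over the brains, 5.14 over the skins and 1.72 over the livers. Only in liver was this under the other entries.

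A single member supplied much of the liver share. The member of length rank 53 took 43.4, 54.9, 50.6, 45.5 and 25.9% of the members' counts in liver 10, 11, 13, 14 and 15. Without it the members held 0.649, 0.666, 0.65, 0.76 and 0.961% of the counts in these livers, with a mean of 0.737% ± 0.133 (SD, n = 5). Counts were spread more evenly elsewhere. The leading member held 3.38 to 4.25% of the members' counts in brain, where it was rank 128 in all 5 libraries, and 2.74 to 11.5% in skin. The number of members that together held 50% of the members' counts was 34 to 37 in brain and 28 to 39 in skin. In liver 10, 11, 13, 14 and 15 it was 3, 1, 1, 2 and 11.

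**Figure D1:**
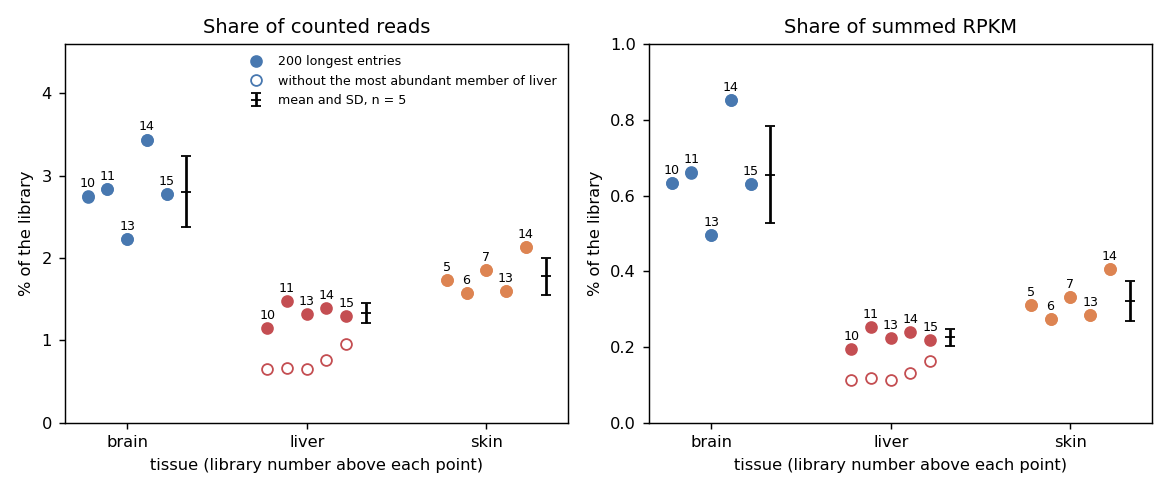
Share of each library taken by the 200 longest entries, as % of the counted reads (left) and % of the summed RPKM (right), for brain, liver and skin with 5 libraries each. Filled points are libraries with their number above, open points leave out the most abundant member of liver, and bars are mean and SD. The brain libraries lie between 2.23 and 3.44% of counts, above all liver and skin libraries. The median RPKM of other entries, not drawn, has the same order of tissues.

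Per length and without TMM scaling, the order of the tissues was brain, skin and liver for members and other entries alike. The median over members of the mean RPKM in a tissue was 8.98 for brain, 1.82 for liver and 5.35 for skin. In every liver library, members lay under the other entries, here those that passed the count filter. The members' median RPKM was 1.47, 1.61, 1.46, 2.06 and 2.02 in liver 10, 11, 13, 14 and 15. For the other entries it was 2.36, 2.24, 2.19, 2.58 and 3.02. In brain the medians were 7.43 to 11.1 RPKM for members and 8.33 to 9.41 RPKM for the others, and in skin 4.52 to 6.54 RPKM for members and 4.22 to 5.73 RPKM for the others. The ranges of members and others thus overlapped in brain and in skin. Members were not filtered here, and a count minimum asks a higher RPKM of a short entry, so members and others were not selected alike. Of entries tested, the liver median was also low for ranks 201 to 400 (1.97 RPKM) and 401 to 800 (1.84 RPKM). The shortest class, ranks 12801 to 18114, had 2.09 RPKM, and the classes between had 2.30 to 3.03 RPKM.

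High per-length levels were rare among members in liver. A mean of at least 10 RPKM was reached by 95 members in brain (47.5%, against 46.2% of the other entries). In liver 13 members reached it (6.5%, against 21.0%), and in skin 58 members (29.0%, against 30.5%). A mean under 1 RPKM was found for 24 members in brain (12.0%, against 12.1%), 76 in liver (38.0%, against 33.5%) and 34 in skin (17.0%, against 19.0%). By mean CPM, brain was the highest tissue for 99 members, liver for 30 and skin for 71. Liver was the lowest tissue for 97 members, brain for 59 and skin for 44. These counts of means involve no test, and the matching shares over all entries are not given here. In bulk samples a smaller share of cells of one type and less RNA per cell cannot be told apart.

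**Figure D2:**
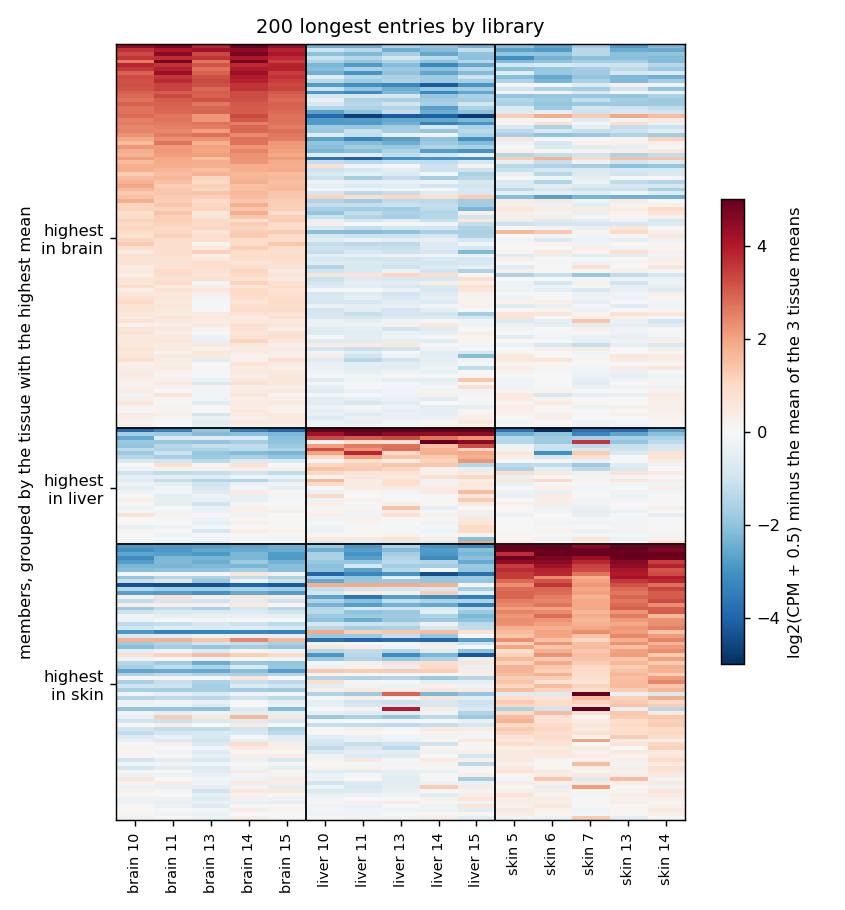
Each of the 200 members (one line each) across the 15 libraries, coloured by log2(CPM + 0.5) minus the mean of the 3 tissue means, with members grouped by the tissue of their highest mean. By mean CPM and without a test or a share over all entries, brain was the highest tissue for 99 members, liver for 30 and skin for 71. Single libraries such as skin 7 and liver 13 show isolated high values.

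For the tests, 16611 entries were kept, 199 of them members. The member left out had length rank 101 and collected 22 counts over the 5 brains, 31 over the 5 livers and 20 over the 5 skins. Calls are adjusted p under 0.05 in edgeR's quasi-likelihood test, with Benjamini-Hochberg adjustment over all 16611 entries. The share of all tested entries that were called is given beside each count, because most entries differed between these tissues.

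Brain over liver split the members in favour of brain. Of the 199 members tested, 111 (55.8%) were higher in brain, against 37.8% of all entries tested, and 37 (18.6%) were lower in brain, against 36.0%. The share called in either direction, 148 members or 74.4%, was close to the 73.8% of all entries. Members and all entries stood apart in the direction of their calls, with similar totals. The median log2 fold change of members was 0.61 (interquartile range −0.49 to 2.05), against 0.013 over all entries. All 5 brain libraries lay above all 5 liver libraries for 82 members (41.2%, against 32.5% of all entries), and below them for 33 (16.6%, against 28.2%), in all 115 members (57.8%, against 60.7%).

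Liver over skin gave the opposite split, with liver on the low side. Of the members, 30 (15.1%) were higher in liver, against 29.3% of all entries, and 110 (55.3%) were lower in liver, against 33.5%. Together 140 members (70.4%) were called, against 62.8%. The median log2 fold change was −0.55 (interquartile range −1.62 to 0.16), against −0.031 over all entries. All 5 liver libraries lay above all 5 skin libraries for 17 members (8.54%, against 18.6%), and below them for 81 (40.7%, against 26.4%), in all 98 members (49.2%, against 45.0%). Both comparisons use the same liver libraries.

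Brain over skin was nearly balanced, with 139 members called (69.8%, against 69.9%). Here 78 members (39.2%) were higher in brain, against 34.7% of all entries, and 61 (30.7%) were lower, against 35.3%. The median log2 fold change was 0.06 (interquartile range −1.35 to 1.06), against 0.027 over all entries. All 5 brain libraries lay above all 5 skin libraries for 65 members (32.7%, against 31.8%), and below them for 58 (29.1%, against 31.5%). Without overlap either way were 123 members (61.8%, against 63.4%), so all 3 shares were near the background. The median of members less that of all entries, 0.036, was −0.027 without skin 7, 0.159 without brain 13, −0.22 for the 100 longest entries alone and 0.47 in the genome table.

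The split depended on the scaling between libraries. Without TMM factors the median of all entries moved by 1.47 (brain over liver), 0.73 (brain over skin) and −0.75 (liver over skin) on the log2 scale. Unscaled, 163 members (81.9%, against 70.0% of all entries) were higher in brain than in liver and 16 (8.04%, against 13.2%) lower. In brain over skin it was 117 members (58.8%, against 54.3%) higher and 50 (25.1%, against 22.9%) lower. In liver over skin it was 9 members (4.52%, against 11.5%) higher and 147 (73.9%, against 55.5%) lower. The median of members less that of all entries was 0.60, 0.036 and −0.52 for the 3 comparisons with TMM, and 0.60, 0.039 and −0.52 without it. Scaling applies a common factor to every entry of a library. This difference could therefore hardly change, and it is no check on the members' position.

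Called against both other tissues, 72 members (36.2%, against 26.6% of all entries) were highest in brain, 11 (5.53%, against 19.5%) in liver and 49 (24.6%, against 17.7%) in skin. Conversely 70 members (35.2%, against 19.9%) were lowest in liver, 29 (14.6%, against 22.9%) in brain and 17 (8.54%, against 10.3%) in skin. With a further minimum of 4-fold against both other tissues, 30 members (15.1%, against 13.4%) were highest in brain. By the same rule 7 members (3.52%, against 5.5%) were highest in liver and 26 (13.1%, against 8.45%) in skin. The 26 include ranks 14 and 78, which among the skins were high in skin 7 alone. The 7 include rank 38, whose liver over skin value was 1.36 and not past the test without liver 14. The share of members with a brain excess of at least 4-fold was thus near that of the catalogue. At least 4-fold lowest in liver were 19 members (9.55%, against 7.74%), a minority of the 70 called lowest there. The same minimum left 11 members (5.53%, against 7.07%) lowest in brain and 3 (1.51%, against 1.65%) lowest in skin. Rank 38 is also among these 11, and its brain over skin call was lost without skin 7. Rank 46, another of them, had 4 counts over all brains and 22 over all livers. Its brain over liver value was −3.61 in the main fit and −0.16 with limma on RPKM. No comparison called 20 members (10.1%, against 10.3%), and all 3 called 81 (40.7%, against 35.0%). Members had deeper counts than other entries, and the part of depth in these counts of calls was not tested.

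**Figure D3:**
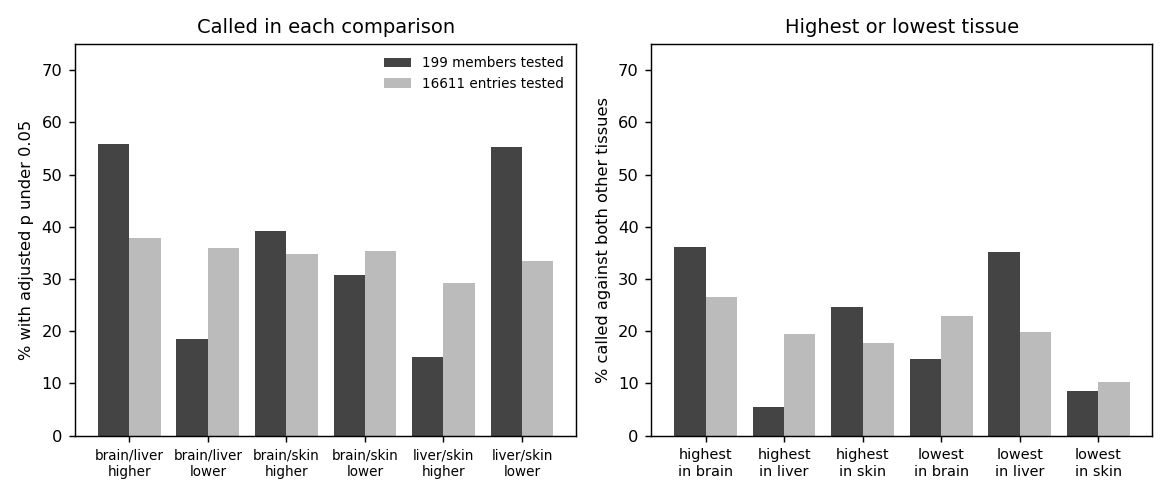
Percent of the 199 members tested (dark bars) and of all 16611 entries tested (light bars) that were called higher or lower in each comparison (left) or called against both other tissues (right). The largest gaps are members higher in brain than in liver (55.8 against 37.8%) and lower in liver than in skin (55.3 against 33.5%).

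Within the 200, the classes of length held different numbers of skin and brain members. Among the 50 longest, 12 (24.0%) were at least 4-fold highest in skin, followed by 6 (12.0%) for ranks 51 to 100, 3 (6.12%) for ranks 101 to 150 and 5 (10.0%) for ranks 151 to 200. At least 4-fold highest in brain were 3 (6.0%), 8 (16.0%), 11 (22.4%) and 8 (16.0%) of these classes in the same order. Over all entries tested the shares were 8.45% for skin and 13.4% for brain. Ranks 101 to 150 and 151 to 200 lay near the skin share, and ranks 51 to 100 and 151 to 200 near the brain share. The median log2 fold change of brain over skin was −0.41, 0.29, 0.66 and 0.06 in the 4 classes, and that of brain over liver 0.38, 0.52, 1.12 and 0.63. The median of liver over skin was negative in all 4, at −0.81, −0.50, −0.47 and −0.73. These differences between classes were not tested. The skin members among the 50 longest include rank 14, which had 1879.2 CPM in skin 7 but 0.327 to 1.33 CPM in the other skins. Its livers had 0.947 to 38.1 CPM, with liver 13 the highest. Those of ranks 51 to 100 include rank 78, whose skin excess also rested on skin 7.

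Over the catalogue outside the members, the medians were graded by length. The median log2 fold change of brain over liver was 0.91 for ranks 201 to 400 and 0.65 for ranks 401 to 800. It was 0.29 for ranks 1601 to 3200 and −0.13 for ranks 6401 to 12800. Liver over skin ran the other way, from −0.81 in the 50 longest through −0.38 for ranks 201 to 400 to 0.06 for ranks 6401 to 12800. The 200 entries next in length therefore showed a median of brain over liver above that of the 3 member classes of ranks 1 to 50, 51 to 100 and 151 to 200.

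**Figure D4:**
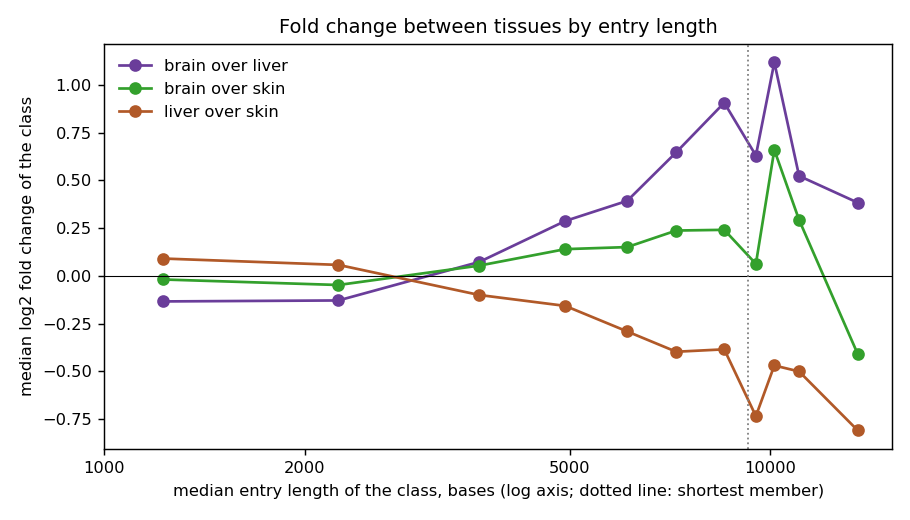
Median log2 fold change of entries grouped by length rank, plotted against the median length of the group in bases on a log axis; the dotted line marks the shortest member. Brain over liver has its highest median, 1.12, for ranks 101 to 150, and liver over skin its lowest, −0.81, in the 50 longest entries.

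The longest entry of the catalogue was found mostly in skin. Rank 1 (Nofu_gene_3_0008573, 35976 bases, zebrafish ENSDARG00000000563) had 0.0198, 0.0895, 0.205, 0.250 and 0.268 CPM in brain 10, 11, 13, 14 and 15. It had 0.285, 0.152, 0.446, 0.127 and 0.473 CPM in liver 10, 11, 13, 14 and 15, and 162, 182, 129, 204 and 108 CPM in skin 5, 6, 7, 13 and 14. Every skin library was above 100 CPM, while brain and liver values were each near the level of a few counts, with 30 counts over all brains, 21 over all livers and 16113 over all skins. The log2 fold change, given with its standard error (SE), was −9.89 ± 0.46 for brain over skin (adjusted p = 2.52e-11) and −9.03 ± 0.46 for liver over skin (adjusted p = 1.24e-10). Pooled over libraries, the level was 982 times higher in skin than in brain (95% counting interval 688 to 1456) and 520 times higher than in liver (340.0 to 841). Per length its skin level was modest, at 4.31 RPKM ± 0.719 (SD, n = 5), under the median member of that tissue.

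Rank 3 (18908 bases) showed the same distribution. It had 0.474, 1.28, 1.17, 1.22 and 0.670 CPM in the 5 brains and 2.35, 0.759, 2.50, 0.446 and 1.48 CPM in the 5 livers, in the order of their numbers. In skin 5, 6, 7, 13 and 14 it had 243, 219, 166, 296 and 247 CPM. Skin lay above both other tissues without overlap, at log2 fold changes of −7.93 ± 0.46 for brain over skin (adjusted p = 2.33e-10) and −7.30 ± 0.45 for liver over skin (adjusted p = 9.43e-10). Per length its mean was 12.5 RPKM in skin.

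The remaining 3 of the 5 longest entries were present in all tissues. Rank 2 (19268 bases) was among the flattest members, with 127 to 160 CPM in the brains, 134 to 169 CPM in the livers and 140 to 187 CPM in the skins, and no comparison called it. Rank 4 (16921 bases) had 81.7, 68.6, 52.5, 80.4 and 78.5 CPM in brain, 122, 224, 171, 288 and 615 CPM in liver and 130, 145, 108, 139 and 170 CPM in skin. Brain did not overlap liver or skin, while liver 10 fell within the skin range and liver 15 was the highest library. Its log2 fold changes of −1.97 for brain over liver (adjusted p = 7.17e-05), −0.94 for brain over skin (adjusted p = 0.0197) and 1.04 for liver over skin (adjusted p = 0.0129) passed the test. Without scaling they were −0.58, −0.21 and 0.37 and did not pass. Brain over skin also failed to pass without brain 11 (−0.86), without brain 13 (−0.79) or without skin 14 (−0.80). Without skin 7, liver 14 and liver 15, liver over skin was 0.24 and did not pass.

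Rank 5 (15814 bases) had 297, 216, 149, 285 and 293 CPM in brain and 369, 287, 362, 327 and 407 CPM in liver. Its skin values were 348, 367, 266, 303 and 317 CPM. Brain 10 and brain 15 lay within the liver range, and brain 13 was the lowest library. Brain over liver passed at a log2 fold change of −0.50 ± 0.19 (adjusted p = 0.0277), and without scaling it was 0.98, of opposite sign. Without liver 15 it was −0.44 and did not pass, and likewise −0.44 with only brain and liver in the fit.

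Members highest in brain included a pair with neighbouring catalogue numbers. Rank 8 (Nofu_gene_3_0012573, 15501 bases, zebrafish ENSDARG00000012482) had 29.1, 68.1, 28.9, 76.6 and 48.5 CPM in brain 10, 11, 13, 14 and 15. It had 0.214, 0.152, 0.446, 0 and 0.237 CPM in the livers and 0.272, 0.267, 0.625, 0.197 and 0.241 CPM in the skins. Rank 124 (Nofu_gene_3_0012572, 10166 bases, zebrafish ENSDARG00000063299) had nearly the same brain values, 28.4, 74.2, 28.9, 75.7 and 41.6 CPM. In the livers it had 0.214, 0, 0.446, 0.127 and 0.355 CPM, and in the skins 2.07, 0.534, 0.625, 1.57 and 1.89 CPM.

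Both were high in brain 11 and brain 14 and lowest in brain 10 and brain 13, and neither overlapped liver. Brain over liver was 7.94 ± 0.51 for rank 8 (adjusted p = 6.66e-10) and 7.75 ± 0.59 for rank 124 (adjusted p = 4.87e-09) on the log2 scale. Their liver counts were 14 and 16 over all 5 libraries, so the fitted values depend on the prior count. Counts pooled over libraries put brain 247 times above liver (95% counting interval 147 to 451) for rank 8, and 213 times (131 to 373) for rank 124. For the same pair brain over skin was 7.26 ± 0.47 and 5.21 ± 0.48 (adjusted p = 9.09e-10 and 6.19e-08).

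The member with the third largest excess of brain over liver, rank 147 (9866 bases), differed in skin. It had 207, 187, 138, 296 and 195 CPM in brain, 1.5, 0.683, 1.16, 1.27 and 0.592 CPM in liver, and 72, 108, 74.4, 110 and 88.7 CPM in skin. Its lowest library in each of brain and skin stayed far above every liver library, and brain lay above skin without overlap. Brain over liver was 7.62 ± 0.32 (adjusted p = 6.64e-12), liver over skin −6.44 ± 0.31 (adjusted p = 6.14e-11) and brain over skin 1.18 ± 0.24 (adjusted p = 0.000308) on the log2 scale. It was thus called highest in brain and lowest in liver, with skin between them.

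The largest excesses of brain over skin also belonged to neighbouring numbers. Rank 82 (Nofu_gene_3_0001838, 10912 bases, zebrafish ENSDARG00000079822) had 12.7, 61.8, 13.9, 60 and 23.7 CPM in brain. It had 0.285, 0.0759, 0.267, 0.0637 and 0.355 CPM in liver and 0, 0.0534, 0.223, 0.197 and 0 CPM in skin. As with ranks 8 and 124, brain 11 and brain 14 were the highest and brain 10 and brain 13 the lowest. Brain over skin was 8.42 ± 0.73 (adjusted p = 2.98e-08), with 10 skin counts in all and a pooled ratio of 341 (95% counting interval 185 to 712).

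Rank 34 (Nofu_gene_3_0001837, 12637 bases, zebrafish ENSDARG00000079161) was more abundant, at 175, 215, 113, 272 and 167 CPM in brain. It had 0.997, 0.986, 2.14, 1.59 and 1.12 CPM in liver and 1.42, 0.854, 1.92, 0.639 and 1.24 CPM in skin. All 5 brains lay far above both other tissues, with brain 14 the highest and brain 13 the lowest. Brain over skin was 7.27 ± 0.36 (adjusted p = 4.57e-11) and brain over liver 7.11 ± 0.36 (adjusted p = 4.29e-11). Its mean in brain was 25.2 RPKM.

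The member with the highest per-length level in brain was rank 128 (10115 bases), at 105.0 RPKM ± 17.1 (SD, n = 5). It had 566, 621, 581, 760 and 630 CPM in brain, 21.9, 17.4, 25.1, 18.9 and 11.1 CPM in liver and 5.28, 8.92, 10.7, 10.7 and 10.2 CPM in skin. No tissue overlapped another, with skin the lowest. On the log2 scale brain over liver was 5.06 ± 0.26 (adjusted p = 5.39e-11) and brain over skin 6.11 ± 0.28 (adjusted p = 1.93e-11). Liver over skin was 1.04 ± 0.23 (adjusted p = 0.000813), but 0.26 and not past the test without scaling.

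Ranks 110 and 80 followed in brain, at 63.6 RPKM ± 12.7 and 61.9 RPKM ± 26.4 (SD, n = 5 each). They were used in all tissues. Rank 110 had 389, 375, 306, 485 and 398 CPM in the brains, against 101, 99.9, 97.8, 133 and 116 CPM in the livers and 212, 214, 264, 188 and 227 CPM in the skins. Rank 110 was highest in brain without overlap, at log2 fold changes of 1.83 over liver (adjusted p = 2.85e-08) and 0.82 over skin (adjusted p = 0.000204). Rank 80 had 309, 474, 263, 629 and 320 CPM in brain, 44.8, 76.2, 58.7, 64.3 and 212 CPM in liver and 212, 152, 140, 199 and 287 CPM in skin. Its liver 15 lay above 3 skin libraries and skin 14 above brain 13, so that only brain and liver did not overlap. Brain over liver was 2.13 ± 0.40 (adjusted p = 0.000155). Brain over skin, 1.01 (adjusted p = 0.0286), did not pass without brain 14 (0.83), without skin 6 (0.92) or without skin 7 (0.90).

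The members highest in liver were few and included one of exceptional abundance. Rank 53 (Nofu_gene_3_0000923, 11779 bases, zebrafish ENSDARG00000022767) had 4.07, 6.12, 16.5, 5.42 and 3.89 CPM in brain. It had 8909.9, 14570.4, 12210.0, 10534 and 4627 CPM in liver 10, 11, 13, 14 and 15, and 4.52, 1.44, 4.46, 4.13 and 9.67 CPM in skin. Liver 15 was the lowest of the livers and brain 13 the highest of the brains, and liver overlapped neither tissue. Its counts summed to 1312 over the brains, 697689 over the livers and 535 over the skins. Brain over liver was −10.47 ± 0.70 (adjusted p = 1.06e-09) and liver over skin 11.03 ± 0.72 (adjusted p = 1.64e-09), while brain over skin was 0.56 (adjusted p = 0.307). Its liver level was 500.0 RPKM ± 153 (SD, n = 5), the highest mean of any member in the 3 tissues.

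Rank 17 (Nofu_gene_3_0000920, 13928 bases, zebrafish ENSDARG00000042780) was steadier. It had 12.3, 11.1, 8.62, 9.03 and 8.07 CPM in brain, 768, 1116, 911, 877 and 895 CPM in liver and 7.08, 9.45, 3.75, 6.05 and 8.95 CPM in skin. The livers lay within a narrow range far above all other libraries. Its log2 fold change of brain over liver was −6.54 ± 0.28 (adjusted p = 8.22e-12) and liver over skin 7.02 ± 0.29 (adjusted p = 1.99e-11). Its liver mean was 39.1 RPKM ± 6.47 (SD, n = 5).

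Rank 38 (Nofu_gene_3_0000921, 12366 bases) carries the same zebrafish identifier as rank 17 and the next catalogue number, and varied widely between libraries. It had 3.20, 3.22, 3.11, 3.61 and 2.92 CPM in brain and 10.9, 24.6, 22, 1309.6 and 311 CPM in liver 10, 11, 13, 14 and 15. Its skin values were 4.57, 3.52, 163, 3.15 and 5.1 CPM in skin 5, 6, 7, 13 and 14. Liver 14, liver 15 and skin 7 were far above the other libraries of their tissue, whereas the brains were within 1 CPM of each other. Brain over liver was −6.70 ± 1.61 (adjusted p = 0.00135), −4.84 without liver 14 and −2.58 without liver 14, liver 15 and skin 7. Brain over skin was −3.48 (adjusted p = 0.0350) but −0.35 and not past the test without skin 7. Leaving out any single brain also ended that call, with values of −3.48 to −3.41. Liver over skin was 3.23 (adjusted p = 0.0494), close to the threshold. It was 1.36 and not past the test without liver 14, and 6.36 without skin 7. It also did not pass when any 1 brain was left out (3.32 each), nor without liver 15 (3.25), skin 5 (2.94), skin 6 (2.93), skin 13 (2.93) or skin 14 (3.03), or with only liver and skin in the fit (3.28). Reads shared between the entries of 1 zebrafish gene could be split between them in counting, so the division between ranks 17 and 38 is uncertain.

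Rank 122 (10174 bases) was the next in liver, at 51.3 RPKM ± 10.3 (SD, n = 5), above rank 17 on that scale. It had 19.4, 68.2, 73.0, 71.0 and 26.3 CPM in brain, 1131, 945, 1129, 734 and 543 CPM in liver and 42.0, 33.1, 36.2, 36.6 and 37.2 CPM in skin. Liver overlapped neither tissue, and the brains fell on both sides of the skins. Liver over skin was 4.6 ± 0.38 (adjusted p = 2.82e-08) and brain over liver −4.12 ± 0.37 (adjusted p = 4.24e-08).

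The 26 members at least 4-fold highest in skin included some nearly without counts elsewhere. Rank 46 (Nofu_gene_3_0011896, 11889 bases, zebrafish ENSDARG00000009341) had 0, 0, 0.0293, 0 and 0.0804 CPM in brain, that is 4 counts in all. It had 0.0712, 0.835, 0.267, 0.255 and 0.178 CPM in liver and 26.7, 45.2, 25.3, 52.6 and 34.8 CPM in skin. All skins lay above all other libraries. The log2 fold change of brain over skin was −10.47 ± 0.61 (adjusted p = 2.65e-10), a fitted value that depends on the prior count. Pooled counts put skin 1756 times above brain (95% counting interval 685 to 6448). Liver over skin was −6.86 ± 0.50 (adjusted p = 6.53e-09).

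Rank 61 (Nofu_gene_3_0019658, 11385 bases, zebrafish ENSDARG00000091090) was more abundant in skin. It had 0.296, 0.298, 0.352, 0.417 and 0.590 CPM in brain, 1.07, 0.304, 1.52, 0.255 and 0.118 CPM in liver and 239, 300.5, 129, 313 and 169 CPM in skin. Skin 7 was the lowest skin and yet far above all brains and livers. Liver over skin was −8.53 ± 0.55 (adjusted p = 1.38e-09) and brain over skin −9.19 ± 0.55 (adjusted p = 3.34e-10). The member with the preceding number, rank 47, was also called highest in skin, but had 44.7 to 149 CPM in the livers and 1.37 to 2.00 CPM in the brains, against 183 to 486 CPM in the skins.

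Rank 20 (13794 bases) had an intermediate level in brain. It had 24.8, 25.3, 24.1, 35.5 and 28.4 CPM in brain, 0.997, 1.97, 2.58, 0.637 and 1.24 CPM in liver and 267, 330.3, 151, 371 and 230.4 CPM in skin. The 3 tissues were fully separated, with skin 7 the lowest skin. Liver over skin was −7.53 ± 0.39 (adjusted p = 1.42e-10) and brain over skin −3.29 ± 0.31 (adjusted p = 8.07e-08).

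The most abundant members of skin per length were ranks 186 and 160. Rank 186 (9399 bases) averaged 57.5 RPKM ± 26.8 (SD, n = 5) in skin. It had 1.98, 1.88, 1.61, 2.67 and 1.77 CPM in the brains and 4.56, 1.44, 4.37, 1.66 and 2.60 CPM in the livers, against 203, 697, 500.5, 499 and 767 CPM in skin 5, 6, 7, 13 and 14. Skin 5, the lowest skin, was still far above both other tissues. The test gave −8.07 ± 0.47 for brain over skin (adjusted p = 2.23e-10) and −7.52 ± 0.46 for liver over skin (adjusted p = 7.56e-10). Rank 160 (9679 bases) averaged 50.9 RPKM ± 23.1 in skin. It had 32.3 to 51.9 CPM in the brains and 17.9 to 32.3 CPM in the livers, against 456, 420.0, 294, 483 and 744 CPM in skin 5, 6, 7, 13 and 14. It too was separated from both, at −3.57 for brain over skin (adjusted p = 1.98e-09) and −4.23 for liver over skin (adjusted p = 7.53e-10).

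The third mean in skin, of rank 78 (11003 bases), rested on 1 library. In brain it had 4.98, 3.97, 3.20, 4.81 and 5.28 CPM, and in liver 1.64, 1.21, 44.7, 0.764 and 1.07 CPM. It had 3.59, 3.37, 2114, 4.33 and 3.09 CPM in skin 5, 6, 7, 13 and 14. The skins other than skin 7 overlapped the brains, with skin 14 just under the lowest brain, and liver 13 was far above the other livers. The test called brain over skin at −6.58 (adjusted p = 0.00907) and liver over skin at −5.45 (adjusted p = 0.0227), but without skin 7 the log2 fold changes were 0.30 and 1.44, of opposite sign. Members raised at least 4-fold over the mean of the other libraries of their tissue, at 1 CPM or more, numbered 5 in skin 7 (2.51%, against 3.02% of all entries tested). In liver 13, 14 and 15 they numbered 2 each (1.01%, against 0.674, 1.22 and 1.51% of all entries), in liver 11 there was 1 (0.503%, against 0.0602%) and in brain 14 also 1 (0.503%, against 0.0241%). The remaining libraries had 0.

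The flattest members differed by little over all 15 libraries. Rank 140 (9975 bases) had 29.1 to 36.4 CPM in brain, 31.2 to 37.6 CPM in liver and 30.0 to 35.8 CPM in skin, at log2 fold changes of −0.13, −0.01 and 0.12 for brain over liver, brain over skin and liver over skin. Rank 39 (12231 bases) had 93.0 to 166 CPM in brain, 111 to 158 CPM in liver and 111 to 143 CPM in skin, with brain 13 the lowest of all. Their libraries overlapped across all tissues and no comparison called them. Flatness here is relative to the TMM scaling, since per length and without that scaling rank 140 averaged 5.36 RPKM for brain, 2.1 RPKM for liver and 3.24 RPKM for skin.

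Members with one zebrafish identifier did not always share the tissue of their highest mean. All 8 such pairs had neighbouring catalogue numbers, and in 5 of them both members had the same tissue of highest mean. Ranks 87 and 155 both had their highest mean in brain, at log2 fold changes over liver of 5.75 and 2.88, and ranks 15 and 176 both had it in skin. Ranks 122 and 161 differed. Rank 161 (9658 bases) had 274, 255, 258, 206 and 232 CPM in brain and 239, 92.4, 156, 126 and 42.0 CPM in liver, so it was higher in brain (0.90, adjusted p = 0.0176) where rank 122 was lower (−4.12). Ranks 5 and 70 and ranks 23 and 51 were the other pairs with different highest tissues. Of these 4 members only rank 51 was called highest in its tissue, brain. The highest tissue of the others did not differ from the next one in the edgeR test. Liver over skin of rank 5 was 0.13 (adjusted p = 0.575). Brain over skin was −0.15 for rank 70 (adjusted p = 0.427) and −0.21 for rank 23 (adjusted p = 0.588). Among the 20 further pairs of members with neighbouring numbers and different zebrafish identifiers, 10 had the same highest tissue. Both counts of pairs rest on means without a test. Brain was the highest tissue for 99 members, liver for 30 and skin for 71, so members without any link also often agree. How often they do was not computed. Whether neighbouring numbers mark neighbouring genes is not stated, and how reads matching several entries were counted is not given in the sources used here, so values of such pairs are uncertain.

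Some libraries also differed from the others of their tissue along entry length, above all brain 13, brain 14 and skin 7. The median log2 difference of members from the other 4 brains, less that of all entries, was −0.26 in brain 13 and 0.26 in brain 14. In skin it was −0.22 in skin 7, and in liver 0.13 in liver 15. Of the 199 members, 104 (52.3%) had their lowest brain value in brain 13, against 26.7% of all entries. Their highest brain value was in brain 14 for 111 members (55.8%, against 19.4% of all entries), and their lowest skin value in skin 7 for 90 members (45.2%, against 23.1%). In brain 13 the median difference was graded over length, at −0.24 for members, −0.12 for ranks 401 to 800, −0.07 for ranks 1601 to 3200 and 0.07 for ranks 6401 to 12800. In brain 14 it was 0.27, 0.14, 0.08 and −0.02 for the same classes.

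The within-tissue SD of log2(CPM + 0.5) had a median over members of 0.246 (brain), 0.363 (liver) and 0.286 (skin), against 0.205, 0.358 and 0.277 for the other entries. Without brain 13, brain 14 and skin 7 together, the counts of members called in each direction of each comparison stayed within 1.5 times of those above.

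**Figure D5:**
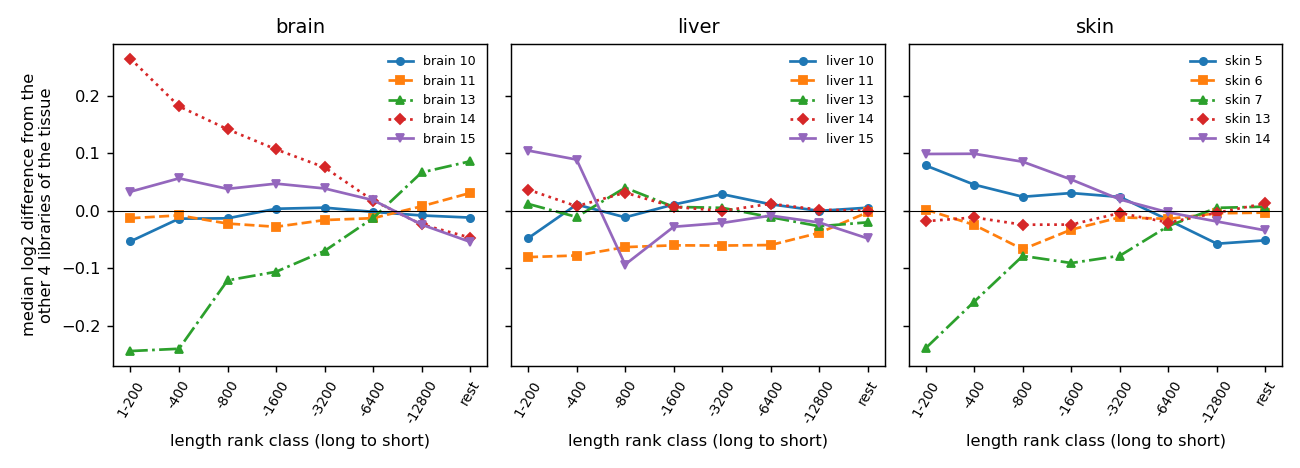
Median log2 difference of each library from the other 4 libraries of its tissue, for entries grouped by length rank from the 200 longest (left) to the shortest (right), with one line per library. Brain 13 and skin 7 lie at −0.24 in the longest group and brain 14 at 0.27, and the lines come together around ranks 3201 to 6400 and part again, with the sign of brain 13 and brain 14 turned, among the shortest.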

How the data were processed

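Total RNA of 15 tissue samples was sequenced, 5 each of brain, liver and skin, and series information calls the 5 biological replicates. Tools named, per the submitters' processing notes, are featureCounts 1.4.3-p1, TopHat2 2.0.6, Bowtie and CASAVA 1.8.2, with no role for any. Not given in the sources used here were the build, the annotation, the strandedness of the counting and the treatment of reads matching several entries. The authors deposited whole-number read counts per catalogue entry, used as raw counts, and RPKM values computed from them, per the file headers. The catalogue count and RPKM sheets together hold 60 further columns, for other samples, which were not used. A second deposited table, of counts and RPKM per genome gene model, served as an alternative.

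Counts were fitted with edgeR 4.0.16 in R 4.3.3, by filterByExpr with a count minimum of 10, TMM scaling and 1 quasi-likelihood fit of all 15 libraries with a term per tissue. P-values were adjusted by Benjamini-Hochberg over 16611 entries, with a threshold of 0.05. The SE of a log2 fold change is the absolute change over the square root of its F statistic. Pooled ratios divide summed counts by summed scaled depths, with a 95% counting interval, and such intervals and floors of 3 counts cover counting error only. Alternatives used DESeq2 1.42.0, limma 3.58.1 on log2(RPKM + 0.1), other scalings, other member sets and left-out libraries. The procedure was also run on simulated counts with a common profile for all tissues and 200 changed entries, with the outcome not given here. In the real data most entries differed, so that run cannot test the scaling or the calls under these conditions. The members, the rules and the lists were chosen with earlier results of these data known. Members are given in full when they are the 5 longest, the 3 largest changes per comparison and direction (adjusted p under 0.05, at least 5 CPM in the higher tissue, no overlap), the 3 highest by RPKM per tissue or the 3 flattest. A few others, being partners in an identifier pair, neighbours in number or high in a single library of a tissue, were chosen after their values were seen. The IDs matched none of the 38438 genes of the reference, so lists of functions and tissue markers were not used, and no sequence is shown.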

Additional observations from a re-analysis of the deposited data

Results flagged for a closer look

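In each tissue, every named member was looked at for a single library standing apart from the other 4 of that tissue, by the gap to the nearest library over the whole range, with a critical value of 0.71. Of 81 groups of 5 libraries looked at, some of them beyond those of the named members, 8 exceeded it, all of named members. Among groups chosen without regard to their values, chance gives about 1 in 20, or 4.05. Many named members were chosen by these same values, rank 78 by a skin mean that rested on skin 7. The 8 can therefore not be set against that rate. Skin 7 accounted for 3 of the 8. Rank 78 had 2113.9 CPM in skin 7, against 4.33 CPM in the next skin, and rank 38 had 163 CPM there, against 5.1 CPM. Rank 8, a member highest in brain, had 0.625 CPM in skin 7, against 0.272 CPM.

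In liver 4 members stood apart, each in a different library. Rank 38 had 1309.6 CPM in liver 14, against 311 CPM in the next liver. Rank 78 had 44.7 CPM in liver 13, against 1.64 CPM, rank 80 had 212 CPM in liver 15, against 76.2 CPM, and rank 46 had 0.835 CPM in liver 11, against 0.267 CPM. In brain the one case was rank 53, the most abundant member of liver, with 16.5 CPM in brain 13, against 6.12 CPM in the next brain.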

How the results depend on the processing

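Low counts limit the smaller liver and skin values, no gene names were used, and title numbers may or may not mark fish. Brain over liver and liver over skin kept their directions for the members' median and for the larger number of calls in all alternatives run. Without scaling, brain over liver lower was 8.04% of members (against 13.2% of all entries) and liver over skin higher 4.52% (against 11.5%). The medians were 2.08, 0.80 and −1.30 for brain over liver, brain over skin and liver over skin, and rank 5 reversed to 0.98. With limma on RPKM the same shares were 7.54% (against 12.6%) and 5.03% (against 11.3%), and brain over skin higher was 59.3% (against 55.6%). The limma medians were 2.02, 0.79 and −1.21, and rank 5 was 0.95. Neither alternative applies TMM, and all entries moved with the members.

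In the genome table, with its own 200 longest gene models, the medians were 1.11, 0.50 and −0.82, or 1.06, 0.47 and −0.75 less those of all gene models. Of these 200, 23.0% were at least 4-fold highest in brain and 2.00% in liver. The same shares over all gene models are not given here, so these 2 values have no background. There the share of counts was 3.97% (brain), 0.715% (liver) and 3.02% (skin), and that of RPKM 0.562% (brain), 0.0696% (liver) and 0.246% (skin). By counts, brain and skin were not fully separated there, with 3.29% in brain 13, 3.44% in skin 5 and 3.29% in skin 14. The cause of these differences between the tables was not tested. The 100 longest entries gave a brain over skin median of −0.20, or −0.22 less that of all entries. Of the 400 longest, 2.26% were at least 4-fold highest in liver, against 5.5% of all entries. Without its most abundant member, the liver shares were 0.737% of counts and 0.128% of RPKM. These removals and those below were in part chosen after seeing the data.

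Title numbers could pair libraries. Same-number deviations correlated at 0.0828 to 0.185 for brain and liver (5 pairs, 4 of 5 libraries best with their own number), against −0.176 to 0.139 for different numbers. For brain and skin they correlated at 0.0304 and 0.261, against −0.208 to 0.236 for different numbers. For liver and skin it was 0.0795 and 0.0834, against −0.259 to 0.285. With the number as a replicate block, brain over liver called 112 members higher (56.3%, against 38.4% of all entries) and 39 lower (19.6%, against 34.9%). In brain over skin it was 59 higher (29.6%, against 28.3%) and 57 lower (28.6%, against 28.9%), both near the background. In liver over skin it was 20 higher (10.1%, against 20.1%) and 91 lower (45.7%, against 28.1%). The block gave a brain over skin median of −0.011 less that of all entries, 0.66 for rank 38 in brain over skin, and 1.41 and 0.70 for rank 78 in brain over skin and liver over skin, all reversed. Under it rank 4 in liver over skin (0.52) and rank 80 in brain over skin (0.61) lost their calls. Skin shares the numbers 13 and 14 with the other tissues, so only 2 pairs stand there.

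Leaving out 1 library at a time, the medians ran over 0.52 to 0.67, 0.033 to 0.22 and −0.68 to −0.44. The brain over skin median less that of all entries ran over −0.027 (without skin 7) to 0.159 (without brain 13). Rank 78 ran over −6.90 to 0.30 in brain over skin and −8.51 to 1.44 in liver over skin, the positive values without skin 7. Without skin 7, liver 14 and liver 15 these were −0.0287, 0.31 and 2.13, and the liver over skin median −0.68. Without brain 13, brain 14 and skin 7, rank 78 was 0.42 and 1.46.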
